A study of Homo sapiens with 6 samples.

Results

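The binding sites of the estrogen receptor mutant K303R in cells given no added estradiol were set against those of the wild-type receptor in cells given 1 nM estradiol (E2). The members are the ChIP-seq peaks of these 2 libraries on chromosomes 1 to 22, merged into 1 region wherever they overlapped by at least 1 bp. The 102848 K303R peaks and 117710 wild-type peaks gave 135086 regions, out of 169433 when the peaks of all 6 libraries of the series were merged. The comparison asks how near the mutant without added hormone comes to the hormone-bound wild-type receptor.

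The series measured estrogen receptor α (ERα) binding in MDA-MB-453, a human breast cancer line of apocrine type, by chromatin immunoprecipitation and sequencing. In all, 3 receptor forms were expressed under doxycycline: wild type, K303R and Y537S, each with and without E2, in 1 library each. The group called K303R without E2 here is the K303R line given 2 µg/mL doxycycline for 2 days and no added E2. The group called wild type with E2 is the wild-type line given the same doxycycline dose together with 1 nM E2 for 2 days. The other 4 libraries are wild type without E2, K303R with E2, and Y537S without and with E2, all on doxycycline. The medium held 10% fetal bovine serum that is not said to be stripped of steroids, so "without E2" means without added E2. The labels do not say whether a line is 1 clone, and the authors' peak names carry the same tag for wild type and K303R and another for Y537S, so for Y537S the tag and the receptor form cannot be told apart. With 1 library a group there is no replicate and no p-value is given. Intervals of ratios at single regions cover counting error only. Intervals of medians and of shares are taken over regions or peaks, which are not replicates. Peak lists alone cannot check the identity of the cells.

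ERα is a nuclear receptor that binds DNA at estrogen response elements, pairs of the hexamer AGGTCA facing each other, and often at sites opened by FOXA1. Estradiol binds the ligand-binding domain and moves its last helix into a position that recruits coactivators. K303R changes a lysine in the hinge region between the DNA-binding and ligand-binding domains, a residue known as an acetylation site next to a protein kinase A phosphorylation site. Y537S changes the ligand-binding domain itself and is known as a hormone-independent mutant.

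Gene starts at which the comparison can be read down to the base come first. They are a small part of the sites on which the libraries differed. By the call rule given below, 6.43% of regions higher in K303R without E2 and 0.654% of lower ones lay within 1 kb of a start. Of all regions compared by that rule 4.78% lay as near. These are shares of regions whose gene had a start site in the reference, 2272 higher and 2906 lower. RefSeq promoter windows (GRCh38.p14), from 250 bases before to 50 bases after a gene's start, were searched on both strands for the hexamer AGGTCA, for a forkhead motif written TGTTTAC and for the AP-1 motif written TGANTCA, where N is any base. Capitals mark these motifs, and the sequences run 5′ to 3′ on the gene's strand. The first 3 are the only well covered windows with lower binding by K303R without E2, and the other 3 are among those with the highest ratio. SMARCD2 (ratio 2.61, above that of IFRD1), TRUB2 (2.39) and PHLDB2 (2.38) are also among those, are not printed and hold none of these motifs. All 6 printed windows were chosen after their values were seen. Fragment counts at each are given after the comparison of counts has been described.

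OXT (chr20:3071370-3071669, plus strand): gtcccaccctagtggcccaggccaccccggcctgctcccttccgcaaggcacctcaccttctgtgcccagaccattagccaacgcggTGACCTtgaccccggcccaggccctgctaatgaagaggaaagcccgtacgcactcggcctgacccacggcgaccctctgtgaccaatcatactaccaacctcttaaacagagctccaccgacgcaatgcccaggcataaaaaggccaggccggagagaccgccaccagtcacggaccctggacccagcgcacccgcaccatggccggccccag
EPB41L2 (chr6:131000680-131000979, minus strand): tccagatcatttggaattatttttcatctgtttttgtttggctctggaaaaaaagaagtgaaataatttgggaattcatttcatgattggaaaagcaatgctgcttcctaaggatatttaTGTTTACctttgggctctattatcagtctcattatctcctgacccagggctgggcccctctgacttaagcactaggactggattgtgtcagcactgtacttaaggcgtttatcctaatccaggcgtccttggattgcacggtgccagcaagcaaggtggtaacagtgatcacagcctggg
BIRC3 (chr11:102317234-102317533, plus strand): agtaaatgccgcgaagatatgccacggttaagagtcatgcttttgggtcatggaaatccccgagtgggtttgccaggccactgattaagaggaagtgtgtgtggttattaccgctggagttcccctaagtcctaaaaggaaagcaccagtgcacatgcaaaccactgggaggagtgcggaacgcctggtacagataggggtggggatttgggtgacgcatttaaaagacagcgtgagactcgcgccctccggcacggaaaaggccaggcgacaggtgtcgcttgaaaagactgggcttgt
FUT3 (chr19:5851400-5851699, minus strand): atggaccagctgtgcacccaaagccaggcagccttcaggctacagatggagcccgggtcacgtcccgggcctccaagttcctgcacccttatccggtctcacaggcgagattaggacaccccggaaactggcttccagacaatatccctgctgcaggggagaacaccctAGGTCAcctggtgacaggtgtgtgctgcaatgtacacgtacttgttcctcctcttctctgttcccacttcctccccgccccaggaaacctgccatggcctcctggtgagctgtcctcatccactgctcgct
IFRD1 (chr7:112422924-112423223, plus strand): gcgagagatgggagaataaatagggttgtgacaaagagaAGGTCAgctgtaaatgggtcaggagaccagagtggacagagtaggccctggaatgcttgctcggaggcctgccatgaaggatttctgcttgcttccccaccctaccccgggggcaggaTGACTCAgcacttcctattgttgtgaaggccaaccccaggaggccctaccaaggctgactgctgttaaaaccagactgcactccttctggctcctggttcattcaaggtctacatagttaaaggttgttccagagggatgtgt
DCAF10 (chr9:37800547-37800846, plus strand): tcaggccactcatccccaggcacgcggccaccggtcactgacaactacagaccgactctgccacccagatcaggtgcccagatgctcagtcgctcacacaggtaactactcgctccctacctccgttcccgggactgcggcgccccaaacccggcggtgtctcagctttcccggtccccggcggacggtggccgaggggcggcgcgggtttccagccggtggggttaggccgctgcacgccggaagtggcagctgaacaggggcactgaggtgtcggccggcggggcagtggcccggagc

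K303R without E2 and wild type with E2 shared most of their sites. Of the 135086 regions, 83740 (62.0%) held a peak of both libraries, 18360 (13.6%) of K303R without E2 alone, and 32986 (24.4%) of wild type with E2 alone. Of the K303R peaks 82.1% (95% Wilson interval 81.9 to 82.4%) overlapped a wild-type peak, and 72.0% (71.7 to 72.2%) of the wild-type peaks overlapped a K303R peak. The summits of shared sites lay a median of 30 bp apart. Counted in bases, the Jaccard index (bases covered by both lists over bases covered by either) was 0.567, beside 0.575 for K303R and wild type both without E2, 0.598 for both with E2 and 0.609 for Y537S without E2 and wild type with E2. These pairs share libraries with the pair described here, so the values are given side by side only.

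At the strongest sites the unscaled counts were similar in the 4 wild-type and K303R libraries. The highest summit count of any peak was also similar, 435 in wild type without E2, 423 with E2, 437 in K303R without E2 and 441 with E2. Counts at these sites lie toward that upper end, and whether they can still show a difference there was not tested. RD3, a photoreceptor protein, held a region among the 5 strongest of both lists, with 374 fragments in wild type without E2, 381 with E2, 382 in K303R without E2 and 380 with E2. The others were EXT1, MECOM, ITPK1 and AXIN2 for K303R without E2 and RGS9, PPFIA4 and a pair at CCND1, which encodes cyclin D1, for wild type with E2. At these 9 regions K303R without E2 had 279 to 404 fragments and wild type with E2 320 to 413. Centred on the median ratio as described below, the ratios of these 2 libraries ran from 0.988 (0.843 to 1.16) to 1.47 (1.26 to 1.71). The lowest was at a CCND1 region and the highest at EXT1.

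The sites of 1 library alone were weak and many were present in the remaining libraries. Regions of K303R without E2 alone had a median of 12 DNA fragments at the summit, and 37.6% of them were peaks in wild type without E2. Regions of wild type with E2 alone had a median of 14 fragments, 60.6% were peaks in wild type without E2, 54.1% in Y537S without E2 and 32.4% in K303R with E2. In no other library were 35.1% of the regions of K303R alone and 18.2% of those of wild type alone. None of the 10000 strongest K303R peaks lacked a wild-type peak, for which the 95% Wilson interval reaches up to 0.0384%. Of the 10000 strongest wild-type peaks 1 lacked a K303R peak. It lies at chr16:60044331-60045034, 1310367 bp from the nearest gene start, that of GOT2, with 142 fragments in wild type without E2, 172 in wild type with E2, no peak in K303R without E2, 11 in K303R with E2, 174 in Y537S without E2 and 200 in Y537S with E2.

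The 5 strongest regions of each class show the same contrast at lower counts. Among regions of K303R alone, the one at TOM1, an endosomal sorting adaptor, had 70 fragments in K303R without E2, 85 in K303R with E2 and 12 in wild type without E2. The region nearest AZGP1, an apocrine secretory protein, had 64, 49 and 15 in the same order, and that at EIF4G3, a translation initiation factor, had 54 and 63 in the K303R libraries with no wild-type peak. At FAM83A the counts were 66 in K303R without E2, 35 with E2 and 28 in wild type without E2, and at ATP5PO, a subunit of the mitochondrial ATP synthase, 48, 38 and 13. Among regions of wild type with E2 alone, SFMBT2, a Polycomb protein, had 96 fragments there, 87 in wild type without E2, 144 and 154 in the Y537S libraries, and no peak in either K303R library. WIPF1, an actin regulator, had 82 with E2, 93 without E2 in the wild type and 15 in K303R with E2. CADPS, a vesicle priming factor, had 83, 55 and 16, and PGPEP1L had 91, 36 and 21. At all 5 K303R regions, and at all 5 wild-type regions counting the one near GOT2, the same line under the other hormone condition also had more than 30 fragments.

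To compare amounts, the number of fragments at each peak's summit was recovered from the authors' fold enrichment and p-value, and the ratio of K303R without E2 to wild type with E2 was divided by its median over the regions compared. The comparison used the 31147 regions (23.1% of 135086) listed in both libraries with a mean of at least 50 fragments, called well covered here. A region was called higher or lower in K303R when its ratio was past 1.5-fold and its exact counting interval, at an error of 0.001 for both sides together, left out 1. By this rule 2565 regions (8.24%) were higher and 3030 (9.73%) lower in K303R without E2. The remaining regions were not called, which does not show that they were equal. Before centring, the median K303R count was 0.747 times the wild-type count. Scaled by each library's background in place of the median, the median ratio was 0.723, a shift of -0.47 on the log2 scale, and the split became 413 higher and 10099 lower, so that 3.93% of calls were higher in place of 45.8%. All ratios below are relative to the median region.

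The amounts differed by more than counting noise. The spread of the log ratio was 2.42 times that expected from counting, beside 1.29 times between the 2 wild-type libraries, 2.06 times between K303R and wild type without E2, 2.11 times with E2 in both and 2.16 times between Y537S without E2 and wild type with E2. Some of these pairs share a library. Of the 2565 higher regions 1127 were past 2-fold and 18 past 4-fold, and of the 3030 lower regions 1852 and 98. The higher regions had a median of 108 fragments in K303R and 72 in wild type, and the lower ones 40 and 120.

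**Figure D1:**
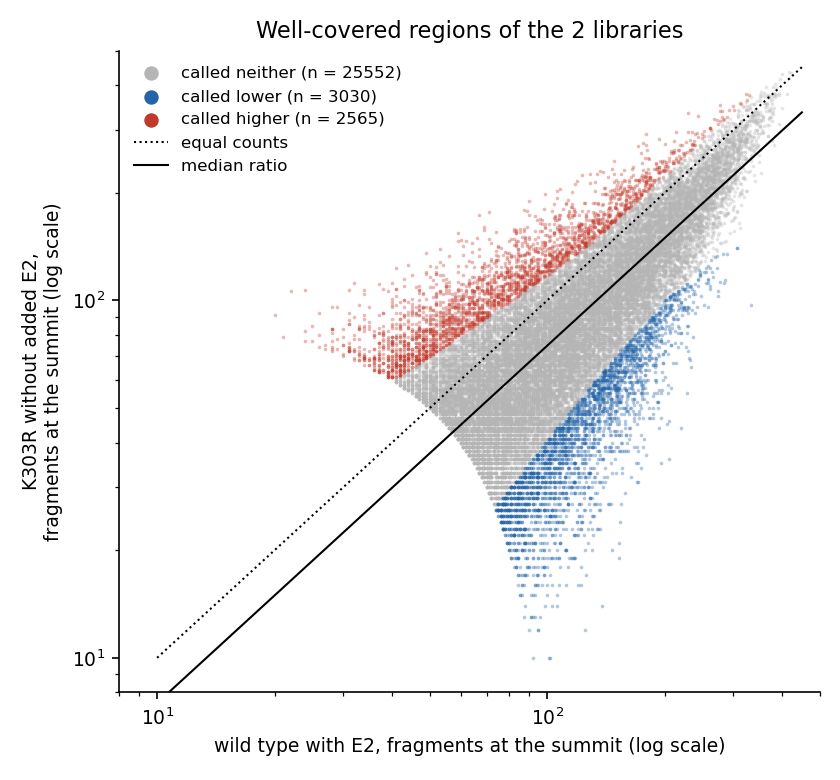
Summit fragments in K303R without E2 (vertical, log scale) against wild type with E2 (horizontal, log scale) for the 31147 well covered regions, 1 point a region, with the regions called higher in red and lower in blue. The cloud follows the solid line of the median ratio of 0.747, below the dotted line of equal counts, and the 2565 higher and 3030 lower regions lie along both of its sides.

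At the printed promoters, the counts in the order wild type without E2, wild type with E2, K303R without E2 and K303R with E2 were 66, 139, 57 and 128 at OXT, the oxytocin gene, whose promoter is known for a hormone response element. Its capitals mark the hexamer as it reads on the other strand, TGACCT, 163 bases before the start, and the binding summit lay 154 bases before it. Both libraries with E2 exceeded both without, and the ratio of K303R without E2 to wild type with E2 was 0.549 (95% interval 0.396 to 0.752). At EPB41L2, a membrane skeleton protein, the counts were 91, 91, 15 and 12, so that both K303R libraries lay far below both wild-type libraries (ratio 0.221, 0.119 to 0.383), and TGTTTAC stands 130 bases before its start. BIRC3, an inhibitor of apoptosis, holds none of the motifs and had 164, 174, 59 and 126 fragments (ratio 0.454, 0.332 to 0.613), with K303R without E2 the lowest.

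On the higher side, FUT3, a fucosyltransferase with AGGTCA 81 bases before its start, had 51, 38, 80 and 82 fragments in the same order (ratio 2.82, 1.89 to 4.26). IFRD1, a transcriptional coregulator, holds AGGTCA 211 bases and TGACTCA 93 bases before its start and had 59, 41, 79 and 65 fragments (ratio 2.58, 1.75 to 3.86). DCAF10, a ubiquitin ligase adaptor, holds no motif and had 54, 40, 96 and 60 (ratio 3.21, 2.20 to 4.77). At all 3 both K303R libraries exceeded both wild-type libraries in unscaled counts. The ratio of K303R with E2 to wild type without E2 was 1.72 (1.20 to 2.49) at FUT3. It was 1.18 (0.82 to 1.71) at IFRD1 and 1.19 (0.81 to 1.75) at DCAF10, where the intervals include 1.

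Of all 21155 protein-coding promoter windows, 1526 held a summit of both libraries, 1495 of K303R without E2 alone and 1081 of wild type with E2 alone. AGGTCA stood in 11.9% of all windows, in 335 of the 1526 with both summits, in 10.6% of those of K303R alone and in 14.7% of those of wild type alone. Of the 367 well covered windows 53 were higher in K303R, 3 were lower and 311 were not called, beside 8.24% higher and 9.73% lower of all well covered regions. The hexamer was in 19 of the 53 higher windows, in 1 of the 3 lower windows and in 29.2% of the well covered windows. The full estrogen response element, both facing hexamers without their outermost base, stood in 8 of the 21155 windows, 2 of them with both summits. TGTTTAC stood in 2.86% of all windows and 3.34% of those with both summits, and TGANTCA in 6.08% and 6.95%.

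Where E2 raised binding by the wild-type receptor, K303R without E2 lay near the wild type without E2. Hormone-raised regions were those higher in wild type with E2 than without by the same call rule, 568 regions or 1.57% of the 36202 compared, and 235 (0.649%) were lowered. Since the wild-type counts chose these regions, the gap between the 2 wild-type libraries is a description, and only the place of the mutants is a measurement. At the raised regions the median count was 58 in wild type without E2, 108 in wild type with E2, 46 in K303R without E2, 88 in K303R with E2, 98 in Y537S without E2 and 112 in Y537S with E2. The median ratio of K303R without E2 was 0.576 to wild type with E2 (order-statistic interval over regions 0.554 to 0.597) and 1.09 to wild type without E2 (1.04 to 1.14). In 428 of 555 regions (77.1%) it was nearer to wild type without E2 than with E2. For K303R with E2 that share was 31.1%, with a median ratio of 0.873 to wild type with E2, and for Y537S without E2 it was 28.7% and 0.926.

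Counts of calls are given for each pair. Of the 528 raised regions well covered in the pair, 268 (50.8%) were lower in K303R without E2 than in wild type with E2 and 1 was higher, beside 9.73% and 8.24% of all regions. The lower count is partly built in, because the regions were chosen for a high wild-type count with E2. Within the K303R line, 140 of 415 such regions (33.7%) were higher with E2 than without and 0 lower. Among all regions of that pair 2.58% were higher and 0.754% lower. Only these 415 of the 568 raised regions were well covered in the K303R pair. A high count with E2 helps a region to be well covered, so the share may differ from that of all 568. Between K303R and wild type both without E2, 18 of the raised regions (5.94% of those well covered) were higher and 7 (2.31%) lower, beside 4.84% and 7.21% of all. Of 558 compared between Y537S without E2 and wild type with E2, 20 (3.58%) were higher and 78 (14.0%) lower, beside 6.97% and 6.6% of all. Between K303R and wild type both with E2, 9 (1.62%) of 555 were higher and 81 (14.6%) lower, beside 5.52% and 8.89% of all. With background scaling the ratio of K303R without E2 to wild type without E2 was 0.788 in place of 1.09, and 96.2% of regions were nearer to wild type without E2. When regions were centred among others of like strength, the share was 73.2%, with ratios of 0.598 to wild type with E2 and 1.11 to wild type without.

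Among the 10 regions with the largest wild-type increase, the counts were 21 to 38 in wild type without E2, 77 to 122 with E2, 23 to 37 in K303R without E2 and 35 to 125 in K303R with E2. The ranges of K303R without E2 and wild type with E2 did not overlap. This is partly built in, because the regions were chosen for a high wild-type count with E2. The region at chr14:96704968-96705552, 92090 bp from the start of VRK1, a nuclear protein kinase, had 31 fragments in wild type without E2, 122 with E2, 29 in K303R without E2, 81 with E2, 93 in Y537S without E2 and 99 with E2. Its ratio of K303R without E2 to wild type with E2 was 0.318 (0.204 to 0.480). The region at ADAM12, a metalloprotease (chr10:126234891-126235482), had 38, 120, 37, 88, 83 and 93 fragments in the same order. At PBX3, a homeodomain factor, the counts were 31, 97, 31, 76, 89 and 115. In these 3 regions the 2 libraries without E2 of wild type and K303R were the lowest of the 6. At RYR1, a calcium release channel (chr19:38508459-38508898), K303R had 23 without E2 and 35 with E2, against 21 and 84 in the wild type and 73 and 77 in Y537S. There K303R with E2 too stayed below wild type with E2.

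At the 235 regions lowered by E2 in the wild type, the median ratio of K303R without E2 was 1.59 to wild type with E2 and 0.845 to wild type without E2. It was nearer to wild type without E2 in 149 of 232 regions (64.2%), but in 28.6% with background scaling, where 106 regions were lowered. Of 149 well covered regions 69 (46.3%) were higher in K303R without E2 than in wild type with E2 and 0 lower, beside 8.24% and 9.73% of all regions. This too is partly built in, since the regions were chosen for a low wild-type count with E2. Against wild type without E2, 31 of 221 (14.0%) were lower and 1 was higher, beside 7.21% and 4.84% of all. The region at SLC7A6, an amino acid transporter (chr16:68265142-68265655), had 90 fragments in wild type without E2, 34 with E2, 104 in K303R without E2, 87 with E2, 92 in Y537S without E2 and 84 with E2 (ratio 4.09, 2.76 to 6.22). Wild type with E2 was the single low library there. The members of this group varied. At DIAPH3, a formin, the counts were 72, 28, 23, 31, 34 and 38, with wild type without E2 the single high library. At TBC1D1, a Rab GTPase-activating protein, they were 93, 29, 39, 40, 71 and 63 (ratio 1.80 to wild type with E2 and 0.548 to wild type without E2), so that K303R without E2 lay between the wild-type libraries.

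**Figure D2:**
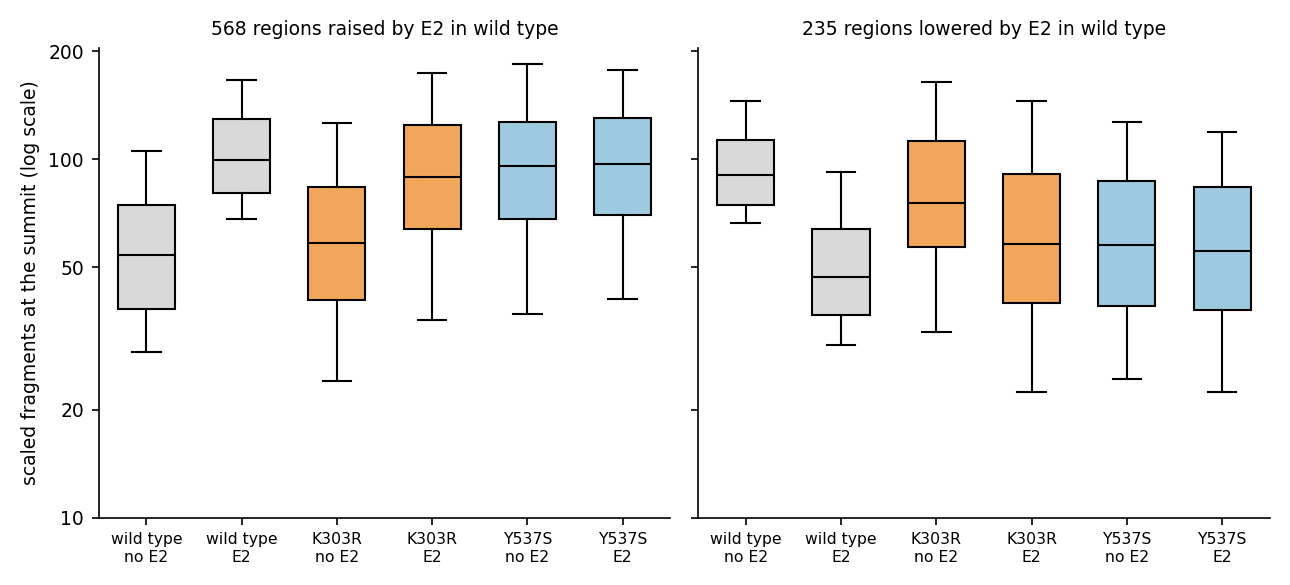
Summit fragments scaled to a common level (vertical, log scale) in each of the 6 libraries at the 568 regions raised and the 235 lowered by E2 in the wild type; boxes span the quartiles over regions with the median as a line, and whiskers the 5th to 95th percentiles. At raised regions K303R without E2 lies near wild type without E2 (median ratio 1.09), while K303R with E2 and both Y537S libraries lie near wild type with E2.

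The direction of the differences mostly recurred when the hormone was exchanged between the 2 lines, while a minority of the regions were called again. The reverse pairing, K303R with E2 against wild type without E2, shares no library with the pair described here. Over the 29815 regions well covered in both pairings, the log2 ratios correlated with r = 0.48 as a description across regions, which are not independent replicates, and with r = 0.44 after centring within 5 Mb windows. Of the 2565 regions higher in K303R without E2, 2478 were compared in the reverse pairing. There 481 (19.4%) were called higher and 5 lower, 86.6% had a ratio above 1, and the median ratio was 1.30. Of the 3030 lower regions, 2786 were compared, with 1068 (38.3%) called lower, 65 called higher, 79.2% with a ratio below 1 and a median of 0.687. Among all 33398 regions of the reverse pairing 6.24% were higher and 9.38% lower, and regions called in neither direction here had a median reverse ratio of 0.999.

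**Figure D3:**
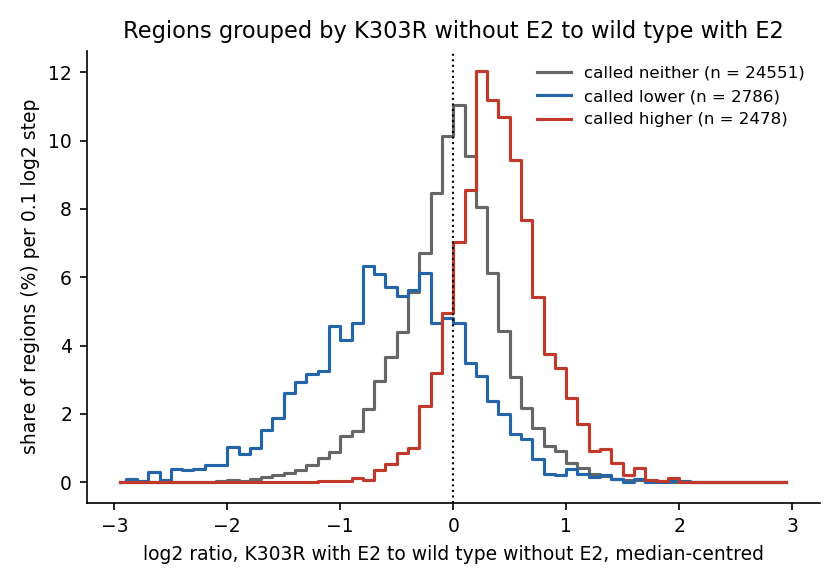
Distribution of the log2 ratio of K303R with E2 to wild type without E2 (horizontal, centred on the median) as the share of regions per 0.1 log2 step, with regions grouped by their call between K303R without E2 and wild type with E2. The 2478 higher regions are shifted to the right, with a median ratio of 1.30, and the 2786 lower regions to the left, with a median of 0.687.

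Regions far apart in both pairings, chosen after their values were seen, included EFNA2, an ephrin ligand, with 32 fragments in wild type without E2, 40 with E2, 77 in K303R without E2 and 116 with E2, and KCNK17, a potassium channel, with 39, 31, 86 and 113. On the lower side FGF10, a fibroblast growth factor, had 115, 83, 20 and 11, and XRCC4, a DNA ligation factor, 90, 101, 20 and 12. The gap between the K303R and wild-type libraries at these 4 regions is largely built in, because they were chosen for it.

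A smaller set went the opposite way in the 2 pairings, and the examples given here were chosen after their values were seen. At OXT the reverse ratio was 2.08 (1.53 to 2.84) beside 0.549. The region at MRGPRD, an orphan G protein-coupled receptor, had 75 fragments in wild type without E2, 143 with E2, 27 in K303R without E2, 117 with E2, 132 in Y537S without E2 and 166 with E2, with ratios of 0.253 here and 1.67 in the reverse pairing. K303R without E2 was the lowest and wild type without E2 the next. The 5 regions higher here and lower in reverse lay at FAT4, SHB, MTR, FYB2 and STXBP4. The one nearest FAT4, a protocadherin, had 107, 41, 72, 49, 45 and 45 fragments in the same order of libraries.

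The 10 regions with the largest ratio, 1 a gene, had 79 to 107 fragments in K303R without E2 and 20 to 31 in wild type with E2. The first lies 2007 bp outside SLC45A3, a solute carrier known from prostate, at chr1:205655492-205656067. It had 30 fragments in wild type without E2, 22 with E2, 106 in K303R without E2, 91 with E2, and 36 and 38 in Y537S. Its ratio was 6.45 (4.05 to 10.7) and its reverse ratio 3.25. At GOT1, the cytosolic aspartate aminotransferase (chr10:99427558-99428048), the counts were 34, 31, 107, 101, 19 and 47, with ratios of 4.62 and 3.18. Both K303R libraries stood above the other 4 at SLC45A3 and GOT1. TMEM92 had 38, 24, 107, 92, 10 and 14 (ratio 5.97), and TNFAIP8L3, a phospholipid carrier, 40, 20, 91, 70, 11 and 9 (ratio 6.09). At ADORA2A, an adenosine receptor, they were 46, 21, 79, 65, 36 and 36. PLIN3, a lipid droplet coat protein, had a ratio of 4.57 and a reverse ratio of 2.74. PLIN3 had 34, 24, 82 and 87 fragments in the wild-type and K303R libraries. The rest of the 10 lay at SLC45A4, GNAO1, HDAC9 and MCF2L2, with ratios from 4.43 to 4.74.

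The 10 regions with the lowest ratio, 1 a gene, had 10 to 19 fragments in K303R without E2 and 90 to 153 in wild type with E2. At LRRTM4, a synaptic adhesion protein (chr2:76902203-76902753), the counts were 116 in wild type without E2, 125 with E2, 12 in K303R without E2, 48 with E2, 104 in Y537S without E2 and 111 with E2 (ratio 0.129, 0.0647 to 0.233). CTNNA2, a neural α-catenin, had 152, 153, 19, 55, 161 and 199 in the same order. At LRRTM4 and CTNNA2 the K303R libraries were the lowest, with more fragments with E2 than without. CADPS had 113, 120, 16, 20, 83 and 108 at another site than the one named above, and HS3ST2, a heparan sulfate sulfotransferase, 90, 106, 14, 18, 121 and 114. There the K303R libraries were low under both hormone conditions. HHAT, which palmitoylates Hedgehog ligands, had 40, 90, 12, 37, 97 and 106. At DAB1, a Reelin pathway adaptor, the counts were 77, 138, 14, 36, 36 and 28, so that Y537S was low as well. The others lay at MAP2K5, NKAIN2 and PLXNA4 and 86752 bp from GAP43, with ratios from 0.133 to 0.189.

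**Figure D4:**
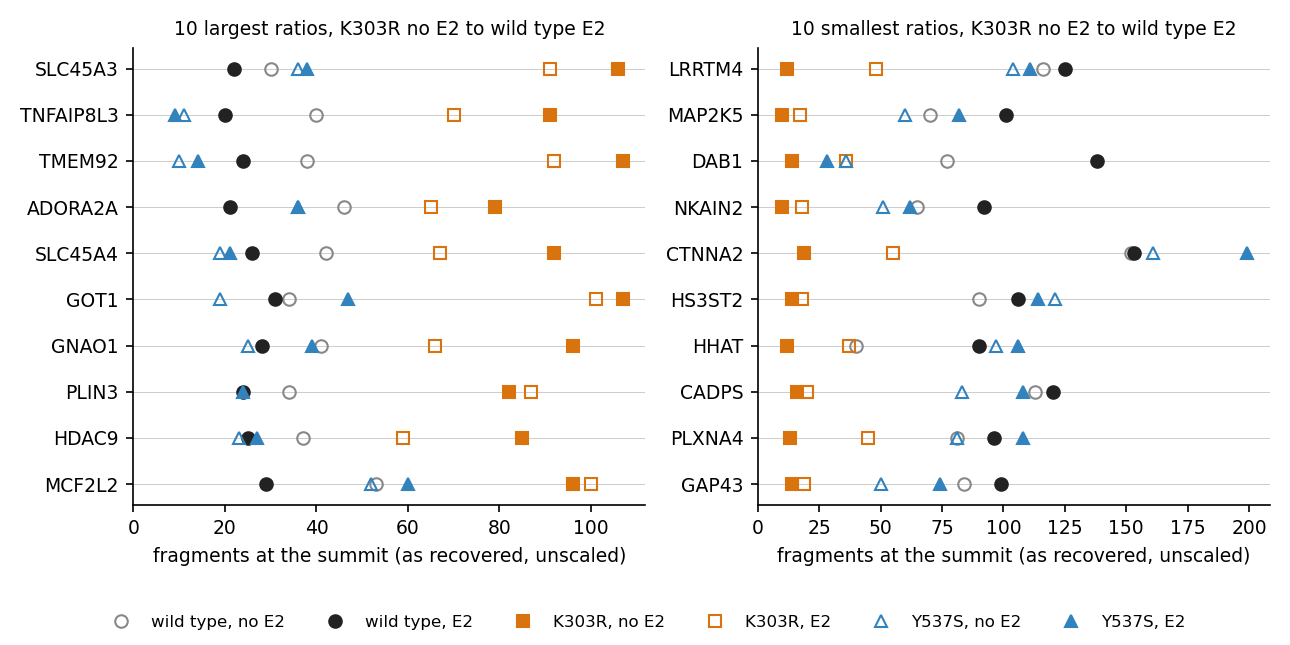
Summit fragments (horizontal, unscaled, linear axis) in each of the 6 libraries, 1 point a library, at the 10 regions with the highest and the 10 with the lowest ratio of K303R without E2 to wild type with E2. K303R without E2 lies at 79 to 107 fragments in the first set and 10 to 19 in the second. K303R with E2 lies on the same side of wild type with E2 in all 20. This is partly built in, because the count of wild type with E2 helped to choose the regions.

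At known estrogen receptor target genes the strongest sites were left uncalled about as often as all regions. Their ratios ran from 0.245, at CXCL12, which was not well covered, to 2.57. All 45 listed targets had a region assigned to them, and at 41 the strongest region was well covered. Of these 5 were higher in K303R without E2, 2 lower and 34 not called, beside 25552 not called of all 31147 well covered regions. Over all 202 well covered regions of the list 19 (9.41%) were higher and 11 (5.45%) lower, beside 8.24% and 9.73% of all regions, and the median log2 ratio was 0.13 (0.07 to 0.21), which background scaling turned to -0.34. GREB1, a coregulator gene and classic target, had 232 fragments in wild type without E2, 261 with E2, 171 in K303R without E2 and 218 with E2 (ratio 0.877, 0.719 to 1.07). PGR, the progesterone receptor, had 327, 331, 310 and 335 (ratio 1.25, 1.07 to 1.47). XBP1, which drives the unfolded protein response, showed 348, 340, 355 and 370. At PGR and XBP1 the 4 counts were within a narrow range.

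The 5 targets whose strongest region was higher were IGFBP4, an insulin-like growth factor binding protein, RBBP8, a DNA end resection factor, SGK3, MYBL1 and CISH, with ratios from 1.52 to 2.57. Of these SGK3 and MYBL1 lie on chromosome 8, where 17.4% of all well covered regions were higher. IGFBP4 had 209 fragments in wild type without E2, 240 with E2, 272 in K303R without E2 and 266 with E2. The 2 lower targets were ELOVL2, a fatty acid elongase, and BCL2, an inhibitor of apoptosis. The ELOVL2 region had 230, 209, 97 and 106 fragments in the same order, low in both K303R libraries (ratio 0.621). At BCL2 the counts were 87, 145, 61 and 64 (ratio 0.563). TFF3, a secreted trefoil peptide, had 91, 135, 62 and 130 (ratio 0.615, 0.448 to 0.836), not past the call rule, with both libraries without E2 below both with E2. CXCL12, a chemokine, had 43, 71, 13 and 36, too few to be well covered.

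Regions of androgen receptor and apocrine genes gave 13 higher (14.6%) and 7 lower (7.87%) of 89, beside 8.24% and 9.73% of all regions. SPDEF, an ETS factor of secretory epithelium, was higher in 4 of 4 well covered regions, and its strongest had 75 fragments in wild type without E2, 68 with E2, 124 in K303R without E2 and 129 with E2 (ratio 2.44). GGT1, a glutathione-degrading enzyme, had 43, 50, 90 and 73. STEAP4, a metalloreductase, went the other way with 147, 148, 43 and 44 (ratio 0.389), both K303R libraries low. UGT2B7, a glucuronosyltransferase, had 78, 64, 26 and 28, a mean below 50 in the pair. ZBTB16, a zinc finger repressor named after its values were seen, had 68, 114, 48 and 87, with both libraries with E2 above both without.

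Of the luminal factors and epithelial genes 11 of 63 regions (17.5%) were higher and 0 lower, beside 8.24% and 9.73% of all regions. The median log2 ratio was 0.39 (0.27 to 0.49), or 0.08 in the reverse pairing and -0.07 with background scaling. Centred within 5 Mb windows it was 0.17, with 8 regions higher and 1 lower. ESRP1, an epithelial splicing regulator, had 63 fragments in wild type without E2, 54 with E2, 87 in K303R without E2 and 122 with E2 (ratio 2.16). MUC1, an epithelial mucin, had 137, 86, 126 and 155 (ratio 1.96), with wild type with E2 the lowest. GRHL2, an epithelial transcription factor named after its values were seen, was higher in 5 of 12 regions. Both GRHL2 and ESRP1 lie on chromosome 8, where 17.4% of all well covered regions were higher. FOXA1, the pioneer factor of ERα, had 141, 126, 64 and 66 in its strongest region (ratio 0.680), which was not called. AGR2, a disulfide isomerase, had 114, 99, 57 and 49 (ratio 0.771).

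Growth factor receptor and protein kinase A genes gave 14 higher (20.3%) and 7 lower (10.1%) of 69 regions, beside 8.24% and 9.73% of all. FGFR4, a fibroblast growth factor receptor, was higher in 3 of 3, and, named after their values were seen, ERBB2, the HER2 receptor, in 6 of 9 and EGFR lower in 4 of 7. The strongest FGFR4 region had 132 fragments in wild type without E2, 108 with E2, 173 in K303R without E2 and 185 with E2 (ratio 2.14). FGFR1 had 22, 17, 34 and 37 and PRKACB, a catalytic subunit of protein kinase A, 86, 63, 27 and 29, both below the mean of 50. IRS1, the insulin receptor substrate, had 184, 180, 81 and 138 (ratio 0.602), with K303R without E2 the lowest. Coregulators of nuclear receptors gave 2 higher and 4 lower of 58 regions, beside the same shares of all regions, with a median log2 ratio of -0.02. PPARGC1A, a coactivator, had 155, 162, 91 and 125 fragments (ratio 0.752) and was not called. The regions with the largest ratios, at SAFB (2.04) and at NCOR1 and PRMT1 (both 2.01), had at most 35 fragments in K303R without E2.

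Markers of other cell types were read in the same way. Basal and mesenchymal genes gave 2 higher (5.13%) and 6 lower (15.4%) of 39, beside 8.24% and 9.73% of all regions, or 1 higher and 2 lower when centred within 5 Mb windows. CDH2, N-cadherin, was at 87 fragments in wild type without E2, 93 with E2, 15 in K303R without E2 and 26 with E2. KRT5, a basal keratin, had 114, 124, 56 and 103 (ratio 0.605, not called), COL1A1, a collagen chain, 325, 284, 323 and 340 (ratio 1.52), and FN1, fibronectin, 47, 64, 81 and 92 (ratio 1.69, not called). Hepatocyte genes gave 1 higher and 0 lower of 23, immune genes 2 and 0 of 25 and housekeeping genes 0 and 0 of 29. With background scaling the median of each of the 9 lists was below 0. None of the lists had a test, and nothing is read from a list as particular to it.

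**Figure D5:**
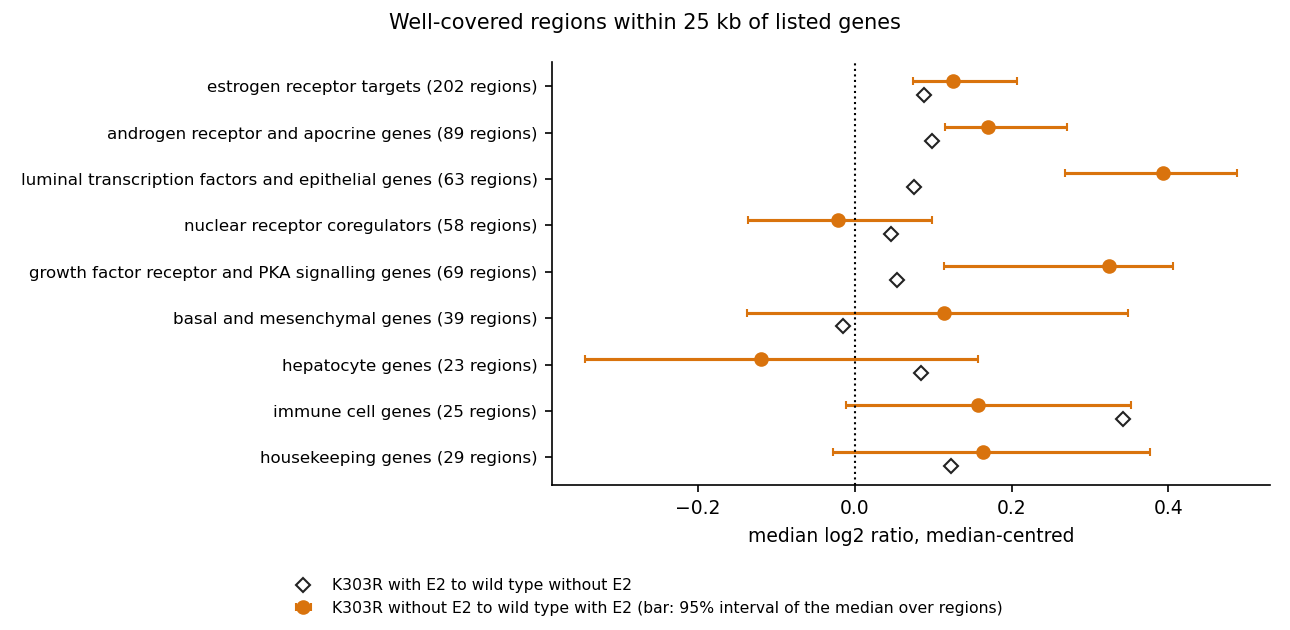
Median log2 ratio over the well covered regions of each gene list, relative to all regions, for K303R without E2 to wild type with E2 (filled, with 95% order-statistic intervals over regions) and for the reverse pairing (open). With the median scaling drawn here the luminal list stands at 0.39 and the hepatocyte list at -0.12, while centring within 5 Mb windows takes the luminal list to 0.17 and background scaling takes all 9 medians below 0.

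The ratio varied with the distance from gene starts. Within 1 kb of a start, 10.4% of 1408 well covered regions were higher in K303R without E2 and 1.35% lower, with a median ratio of 1.20, or 1.11 in the reverse pairing. Beyond 100 kb, 5.43% of 9930 regions were higher and 15.8% lower, with median ratios of 0.890 and 0.892. The shares among all well covered regions were 8.24% higher and 9.73% lower. Of the regions of K303R alone 12.2% lay within 1 kb of a start, beside 7.58% of shared regions and 3.87% of those of wild type with E2 alone. These shares are of regions whose gene had a start site in the reference. The ratio before centring also varied with strength in the other 4 libraries, from 0.923 at under 20 fragments to 0.683 at 50 to 100 and 0.837 at 200 or more. The part of strength in the relation to gene starts was not tested.

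The ratio varied between chromosomes as well. On chromosome 19, 23.6% of regions were higher and 1.68% lower, with a median log2 ratio of 0.39, or 0.35 in the reverse pairing and -0.08 with background scaling. On chromosome 8, 17.4% were higher and 7.37% lower, with medians of 0.18 and 0.15 in the 2 pairings. On chromosome 15, 4.26% were higher and 16.7% lower, with medians of -0.17 and -0.21. Over all well covered regions 8.24% were higher and 9.73% lower. The copy number of the lines was not measured, and its part in the ratios was not tested. When each region was centred within its 5 Mb window, 2309 regions were higher and 2605 lower.

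At ESR1, the gene of ERα itself, 25 regions were found, 14 in both libraries, 3 in K303R without E2 alone and 8 in wild type with E2 alone. Of the 8 well covered ones 3 were higher, 1 was lower and 4 were not called, beside 8.24% higher and 9.73% lower of all regions. The region at chr6:151807290-151808356, 371 bp from a start of the gene, had 66 fragments in wild type without E2, 52 with E2, 74 in K303R without E2, 88 with E2, 61 in Y537S without E2 and 83 with E2 (ratio 1.91, 1.32 to 2.77). The region at chr6:151657975-151658647 had 86, 63, 101, 120, 28 and 15, with the Y537S libraries lowest (ratio 2.15). Whether DNA of the doxycycline-driven receptor gene adds to these counts was not tested. The amount of receptor in each library was not measured in these files.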

How the data were processed

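The deposited data are 6 lists of peaks, 1 library a group, from MDA-MB-453 cells. Per the submitters' processing notes, Bowtie2, SAMtools, Picard, bedtools and MACS2 were used with hg38; no version or setting is given in the sources used here. The authors deposited for each peak a score, a signal value that is the fold (ratio) over background at the summit, −log10 of the p-value and q-value, and the summit's offset. From fold and p-value the whole number of fragments at the summit and the local background were recovered for 100% of peaks, matching within 0.01%. Summit counts range up to 437 in K303R without E2 (median 24) and 423 in wild type with E2 (median 27), which limits precision; list sizes were 102848 to 121641 peaks. Depth in reads is unknown.

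Peaks on chromosomes 1 to 22 were merged at 1 bp overlap. Ratios were centred on the median over regions in both lists with a mean of at least 50 fragments. Calls need 1.5-fold and an exact conditional (Clopper-Pearson) interval at an error of 0.001 that leaves out 1; printed intervals are 95%. The pair has 1 library a side, and no test across libraries was run; shares of peaks carry Wilson intervals. Fragments copied by PCR are not independent, and intervals of ratios at single regions cover counting error only. Those of medians and of shares are over regions or peaks, which are not replicates. Regions were assigned to genes, and start sites and promoters taken, from RefSeq tables of GRCh38.p14. Exons, introns and sequence at other summits were not analysed here. The calling code was tested on simulated data. Named by rule were the 10 regions with the highest and the 10 with the lowest ratio, the 10 most raised and 5 most lowered by E2 in wild type, the 5 strongest of each list and of each list alone, the targets, and the 2 list genes with the largest and smallest ratio; a name is the gene holding the summit or the nearest within 100 kb. One gene that the rule names is not reported here. The members and the 9 gene lists (211 entries, 207 genes, 3 of them not on chromosomes 1 to 22) were chosen with earlier results of these data known. Alternatives covered scaling, thresholds, overlap, the authors' fold and centring by window; centring among regions of like strength and keeping only close summits were chosen after seeing the data. Python 3.11.15, numpy 2.4.6, scipy 1.17.1 and pandas 2.3.3 were used.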

Additional observations from a re-analysis of the deposited data

How the results depend on the processing

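No paired analysis was possible because the pair compared, K303R without E2 and wild type with E2, has 1 library a side, which also leaves no replicate to drop; a model over all 6 libraries was not run. The share of K303R peaks overlapping wild type was 84.2% at −log10 q of at least 5, 87.8% at 10, 81.3% with an overlap of at least 50% of the shorter peak and 77.0% with lists of equal length, and that of wild-type peaks overlapping K303R 70.9%, 69.4%, 71.2% and 77.0%. The Jaccard index over bases was 0.583 at 10. Among the 50000 strongest peaks 832 of K303R and 2031 of wild type lacked a partner, and ranked by fold 2 and 64 of the 10000 strongest. Higher and lower regions numbered 413 and 10099 with background scaling, 801 and 1150 at a mean of 100, 1127 and 1852 past 2-fold, 3947 and 5053 with a 95% interval and 622 and 1311 by the authors' fold; under the other 6 settings they stayed within 1.5 times. Background scaling took the targets' median to -0.34. At regions raised by E2 the log2 ratio of K303R without E2 to wild type with E2 was -0.80, and -1.26 with background scaling, -0.92 past 2-fold and -0.74 by strength; to wild type without E2 it was 0.12, and -0.34 with background scaling, a reversal, and 0.30 past 2-fold. At lowered regions the values were 0.67 to wild type with E2, and 0.17, 0.74 and 0.79, and -0.24 to wild type without E2, and -0.75, -0.39 and -0.10. Of the other values, 22 medians by chromosome moved with background scaling. The cause of these shifts was not tested. With 1 library a group, a difference between libraries and one between receptor forms or hormone conditions cannot be told apart.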
